A study of Mus musculus with 8 samples.

Results

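The immunoglobulin light chain variable (V) segments were examined in stroke infarcts of aged mice treated with vehicle or 2-hydroxypropyl-β-cyclodextrin (HPβCD). Every gene whose symbol begins with Igkv (kappa) or Iglv (lambda) and that had at least 1 count in any library was included. This gave 111 segments of the 46078 genes listed in the count tables, and of the 26720 genes with a count. They comprised 95 functional kappa segments, 13 kappa segments annotated as pseudogenes, and all 3 lambda segments. A further 52 kappa segments had no count in any library. The pseudogenes held 87 counts in total, or 0.0596% of all light chain V counts.

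An antibody is built from paired heavy and light chains. In the mouse, a developing B lymphocyte assembles its light chain gene by joining a V segment to a joining segment at the kappa locus or, less often, at the lambda locus. The daughters of that cell carry the same join, so a clone that expands and matures into plasma cells, which secrete antibody in large amounts, raises the transcript of its own V segment. In bulk tissue, V segment usage therefore reads out which rearranged light chains are transcribed, weighted by how much RNA each cell makes.

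Infarcts came from 8 wild-type male C57BL/6J mice, 18 months old, all with DH stroke (occlusion of the distal middle cerebral artery, which feeds the cortex, then hypoxia). Subcutaneous PBS (vehicle, n = 4) or HPβCD at 4 g/kg (n = 4) was given 3 times per week for 6 weeks from 1 week after stroke, and tissue was taken at 7 weeks. HPβCD is a ring-shaped sugar that takes up cholesterol and other lipids. Infarcts were cut out by eye after saline perfusion, so neither the amount of adjoining brain nor the number of lymphocytes was fixed. Each library was sequenced to between 16.6 M and 32.9 M gene counts. Vehicle animals 1 and 3 stood apart in a list of neuron markers, at 900 and 5682 CPM (counts relative to library size, after TMM factors that adjust for library composition) against 2.57 to 71.7 CPM in the other 6 animals. The summed level, the usage measures and several segments are also given without them.

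The segments that led at least 1 library differed between animals, and the end of each germline segment, which encodes the start of CDR3 (the loop that contacts antigen), shows how distinct they were. Those 7 leading segments are shown, with Igkv10-96, which ranked second in 3 libraries and is a near copy of Igkv10-94, and with Iglv3 and Igkv5-48, which passed the test described below. The last 60 bases of each GENCODE M21 transcript (GRCm38) are printed 5′ to 3′. Capitals run from the last in-frame cysteine codon, after which CDR3 begins, to the end of the germline segment.
Iglv1: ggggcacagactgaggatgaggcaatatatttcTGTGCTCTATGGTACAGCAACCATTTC
Igkv8-28: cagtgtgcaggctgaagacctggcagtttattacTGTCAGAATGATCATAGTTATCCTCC
Igkv4-63: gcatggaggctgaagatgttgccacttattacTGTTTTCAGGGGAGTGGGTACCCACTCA
Igkv10-94: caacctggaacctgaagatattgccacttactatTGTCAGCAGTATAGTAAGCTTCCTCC
Igkv4-55: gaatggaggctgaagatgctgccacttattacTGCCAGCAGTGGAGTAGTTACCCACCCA
Igkv14-111: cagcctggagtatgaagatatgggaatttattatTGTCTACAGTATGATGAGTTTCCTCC
Igkv9-124: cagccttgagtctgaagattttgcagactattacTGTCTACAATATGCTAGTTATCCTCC
Igkv10-96: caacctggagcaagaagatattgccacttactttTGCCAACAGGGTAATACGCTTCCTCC
Iglv3: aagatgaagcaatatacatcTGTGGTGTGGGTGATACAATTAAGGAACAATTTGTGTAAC
Igkv5-48: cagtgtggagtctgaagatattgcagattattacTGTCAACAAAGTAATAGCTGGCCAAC

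Iglv1 lies at chr16:19085017-19085500 and Iglv3 at chr16:19241207-19241690, both on the minus strand. The kappa segments all lie on chromosome 6. Igkv8-28 is at chr6:70143593-70144166, Igkv4-63 at chr6:69377944-69378472, Igkv10-94 at chr6:68704508-68704978, Igkv10-96 at chr6:68631963-68632442, Igkv4-55 at chr6:69607275-69607828, Igkv9-124 at chr6:67942074-67942540 and Igkv5-48 at chr6:69726573-69727138, each on the minus strand. Igkv14-111 is at chr6:68256389-68256869 on the plus strand. Of the 95 functional kappa segments, 61 used TGT and 34 used TGC as that last cysteine codon, and the median germline stretch from it was 26 bases. The letters CCTCC closed 39 of the 95 segments (41.1%), and those 39 held 73.2% of the counts of functional kappa segments. Igkv10-94 and Igkv10-96 were 92.2% identical over an alignment of 359 bases, whereas Igkv8-28 and Igkv4-63, which led different vehicle animals, were 63.0% identical.

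Light chain V transcripts were lower in HPβCD infarcts than in vehicle infarcts. In vehicle animals 1 to 4 they made up 0.115%, 0.220%, 0.189% and 0.0740% of gene counts. In HPβCD animals 1 to 4 they made up 0.0191%, 0.00364%, 0.00463% and 0.0163%. Every vehicle animal lay above every HPβCD animal, and the lowest vehicle share was 3.88 times the highest HPβCD share. The mean share was 0.150% ± 0.0669 in vehicle and 0.0109% ± 0.00791 in HPβCD infarcts (SD, n = 4 per group). On the log2 scale the means differed by -4.01, a 16.1-fold difference of geometric means, and this summed level was not tested because it is a score over the chosen genes. Fewer B-lineage cells and less antibody RNA per cell cannot be told apart in bulk tissue. The difference did not rest on the abundant segments, since it was -3.89 without the leading segment of each library and -3.37 without the 5 leading segments of each library. It was -3.91 without vehicle animals 1 and 3.

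Both chains took part. Kappa V segments summed to 908, 1995, 1997 and 638 CPM in vehicle animals 1 to 4 and to 171, 31.3, 45.8 and 156 CPM in HPβCD animals 1 to 4. The kappa values of the groups did not overlap. Lambda V segments summed to 173, 87.0, 21.8 and 67.7 CPM in vehicle animals and to 23.4, 6.99, 2.47 and 7.16 CPM in HPβCD animals. Here the groups overlapped, because HPβCD animal 1 lay above vehicle animal 3. Mean log2 CPM differed by -3.97 for kappa and by -3.23 for lambda, a pair of differences that was not tested against each other.

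**Figure D1:**
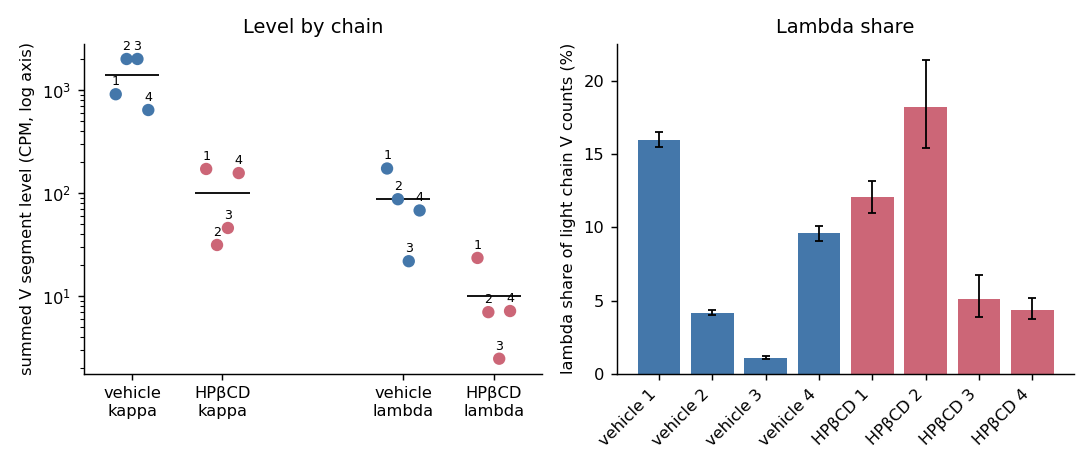
Left, summed CPM of kappa and lambda V segments on a log axis, with 1 point per animal (numbered) and a line at the group mean; all 4 vehicle points lie above all 4 HPβCD points for kappa but not for lambda. Right, lambda counts as a percentage of light chain V counts in each library, with 95% Wilson intervals for counting error; the bars range from 1.08% to 18.2% and the groups overlap.

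To determine whether the balance of the chains changed, lambda counts were expressed as a percentage of light chain V counts. The percentages in vehicle animals 1 to 4 were 16.0%, 4.18%, 1.08% and 9.59%, and in HPβCD animals 1 to 4 they were 12.1%, 18.2%, 5.12% and 4.39%. The highest value, in HPβCD animal 2, rested on 114 lambda counts of 625 (95% Wilson interval 15.4% to 21.5%). The spread within a group was wider than the gap between them, with means of 7.71% ± 6.54 in vehicle and 9.95% ± 6.52 in HPβCD infarcts (SD, n = 4 per group). The difference of 2.24 percentage points did not pass the exact permutation test (two-sided, p = 0.600, adjusted p = 0.971 over the 4 usage measures). Such a p does not show that the balance was alike. The smallest p that 4 against 4 animals allow is 0.0286.

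Mouse lambda usage rests on few segments, of which Iglv1 is the usual main contributor. Iglv1 made up between 67.4% and 94.6% of lambda V counts in each of the 8 libraries. Its level was 163, 80.9, 16.5 and 55.4 CPM in vehicle animals 1 to 4 and 15.9, 6.56, 1.66 and 6.27 CPM in HPβCD animals 1 to 4. The groups did not overlap, by a narrow margin between vehicle animal 3 and HPβCD animal 1, and the log2 fold change of -3.38 (SE 0.86) did not pass the test (edgeR, adjusted p = 0.0725). Iglv3 was the steadiest of the abundant or named segments within the vehicle group, at 4.58, 5.17, 3.81 and 3.93 CPM, against 0.804, 0.0613, 0.429 and 0.444 CPM in HPβCD animals. It fell by 3.31 on the log2 scale (SE 0.50, adjusted p = 0.0427 in edgeR). Iglv2 had 4.81, 0.976, 1.45 and 8.39 CPM in vehicle animals and 6.78, 0.368, 0.376 and 0.444 CPM in HPβCD animals, groups that overlapped because of HPβCD animal 1 (log2 fold change -0.96, adjusted p = 0.635). Iglv2 lies at chr16:19260401-19260859 on the minus strand and was 90.8% identical to Iglv1.

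The constant genes are spliced to the joined V segment in the full transcript. Lambda constant counts (Iglc1, Iglc2 and Iglc3) were 4.68%, 1.35%, 0.764% and 3.10% of light chain constant counts in vehicle animals 1 to 4, and 3.61%, 7.17%, 3.98% and 1.77% in HPβCD animals 1 to 4. Vehicle animal 3 was lowest and HPβCD animal 2 highest by constant genes as by V segments. In every library, however, the lambda share was lower by constant genes than by V segments. There were 0.282 to 0.448 V counts per constant count in the 8 libraries, with overlap between the groups. By chain this ratio was 0.257 to 0.436 for kappa and 0.380 to 1.37 for lambda, so the lambda share depended on which genes were counted.

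A different segment led in nearly every animal. Vehicle animal 1 was led by Iglv1 (15.1% of its light chain V counts), followed by Igkv1-135 (13.8%) and Igkv8-24 (11.4%). Vehicle animal 2 was carried by a pair of kappa segments, Igkv8-28 (43.0%) and Igkv10-96 (41.3%). Vehicle animal 3 was led by Igkv4-63 (51.3%), followed by Igkv12-46 (17.8%) and Igkv9-120 (12.8%). Only vehicle animal 4 and HPβCD animal 1 shared a leader, Igkv10-94, at 14.5% and 16.1%. Igkv4-55 led HPβCD animal 2 (22.7%), Igkv14-111 led HPβCD animal 3 (41.5%) and Igkv9-124 led HPβCD animal 4 (25.2%). The 8 libraries thus had 7 distinct leaders, and their 5 leading segments comprised 22 distinct segments. No segment exceeded 1% of light chain V counts in all 8 libraries, 46 did so in at least 1, and 18 did so in a single library.

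**Figure D2:**
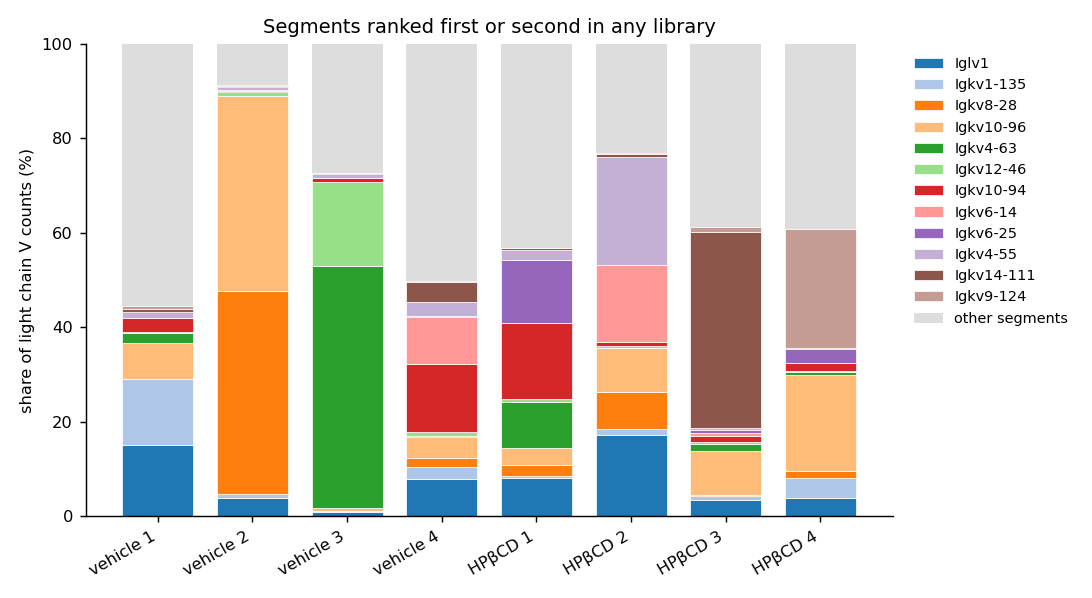
Share of light chain V counts (percent) taken in each library by the 12 segments that ranked first or second in any library, with the remaining segments in grey. Igkv8-28 and Igkv10-96 fill most of vehicle animal 2, Igkv4-63 fills 51.3% of vehicle animal 3 and Igkv14-111 fills 41.5% of HPβCD animal 3, and other animals are led by other colours.

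The leaders of vehicle animals 2 and 3 were at a low level in most other animals. Igkv8-28 reached 896 CPM in vehicle animal 2, against 1.64, 1.51 and 13.5 CPM in vehicle animals 1, 3 and 4 and between 0.107 and 4.65 CPM in HPβCD animals. Igkv4-63 reached 1035 CPM in vehicle animal 3, 22.2 CPM in vehicle animal 1 and 18.7 CPM in HPβCD animal 1, and was at or below 0.888 CPM in the other 5 animals, with no count in HPβCD animal 2. Its log2 fold change was -5.70 (adjusted p = 0.226 in edgeR) and 3.50 without vehicle animals 1 and 3. Igkv10-96 was less exclusive, with 82.0, 860, 13.2 and 32.3 CPM in vehicle animals and 7.07, 3.55, 4.51 and 33.5 CPM in HPβCD animals. Igkv10-96 exceeded 1% of light chain V counts in 7 of the 8 libraries, as did Igkv9-120 and Iglv1, so these 3 recurred across animals. Across the members, 75 of the 111 had more than 50% of their summed CPM in a single library. Of the 111, 14 had a count in only 1 library and 27 had fewer than 10 counts in total. Among the 45 segments tested below, 21 had more than 50% of their summed CPM in a single library.

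The heavy chain constant genes, which set the antibody class, also differed between the animals with the strongest leaders. Ighg1 (IgG1) was at 2345 CPM and Ighe (IgE) at 44.9 CPM in vehicle animal 2, where Igkv8-28 and Igkv10-96 led, and at most at 146 and 0.107 CPM in any other animal. Ighm (IgM) was at 10637 CPM in vehicle animal 3, where Igkv4-63 led, and between 2095 and 3835 CPM in the other vehicle animals. Whether these heavy and light chains came from the same cells was not tested.

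The groups overlapped in dominance and in evenness. The leading segment took 15.1%, 43.0%, 51.3% and 14.5% of light chain V counts in vehicle animals 1 to 4 and 16.1%, 22.7%, 41.5% and 25.2% in HPβCD animals 1 to 4. The difference of group means was -4.61 percentage points (exact permutation test, two-sided, p = 0.771, adjusted p = 0.971, n = 4 per group). The effective number of segments (the inverse of the unbiased Simpson index, which is the number of equally used segments that would give the same concentration) was 11.9, 2.80, 3.19 and 16.6 in vehicle animals. It was 12.8, 7.89, 5.30 and 8.03 in HPβCD animals. Vehicle animals 2 and 3 had the lowest and vehicle animal 4 the highest effective number, so the HPβCD values lay inside the vehicle range. The mean log2 difference was 0.32 (exact permutation test, two-sided, p = 0.686, adjusted p = 0.971, n = 4 per group). Shannon evenness, which is 1 when all detected segments are used equally, was 0.656, 0.337, 0.410 and 0.726 in vehicle animals and 0.730, 0.680, 0.659 and 0.659 in HPβCD animals. By this index HPβCD animal 1 was the most even, vehicle animals 2 and 3 lay below all others, and the groups overlapped. The group means were 0.532 ± 0.188 and 0.682 ± 0.0332 (SD), and the difference of 0.150 had an unadjusted p of 0.200 in an exact permutation test added after the data were seen. This index divides by the log of the number of segments detected, so it depends on depth. That number was 78 to 94 in vehicle and 39 to 63 in HPβCD libraries, which held fewer light chain V counts. Without vehicle animals 1 and 3, the difference between the groups was 3.06 percentage points for lambda, -2.40 percentage points for the leading segment and 0.25 on the log2 scale for the effective number.

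**Figure D3:**
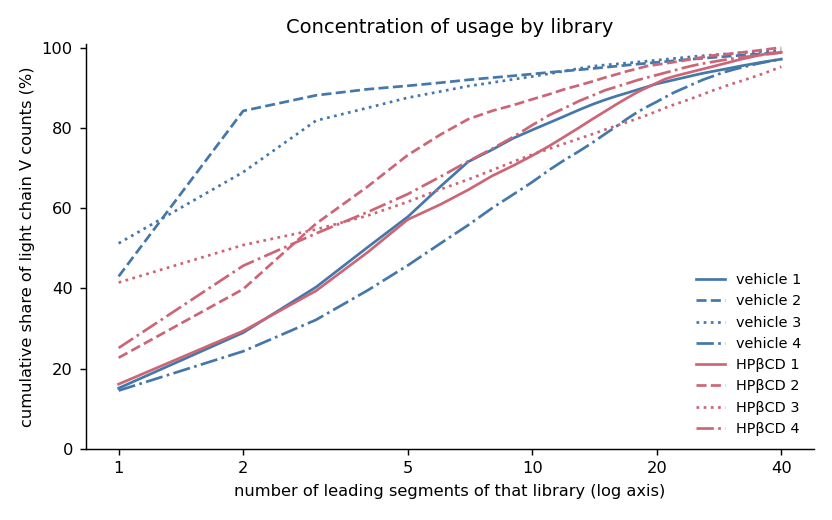
Cumulative share of light chain V counts (percent) against the number of leading segments counted, on a log axis, with 1 line per library. Vehicle animals 2 and 3 reach 90.6% and 87.6% with 5 segments, vehicle animal 4 reaches 45.8%, and the HPβCD lines lie between 57.2% and 73.3%.

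More segments were detected in vehicle infarcts, but these libraries also held more light chain V counts. The number with at least 1 count was 89, 94, 78 and 87 in vehicle animals 1 to 4 and 60, 39, 63 and 59 in HPβCD animals 1 to 4, without overlap. The light chain V counts were 19112, 72549, 33347 and 13130 in vehicle libraries and 3385, 625, 899 and 2941 in HPβCD libraries. When every library was reduced to 625 counts, the expected number of segments was 49.7, 34.8, 32.5 and 51.1 in vehicle animals and 43.5, 39.0, 59.0 and 42.2 in HPβCD animals. At equal depth the groups overlapped, and the highest value was that of HPβCD animal 3. The gap in segments detected was not seen at matched depth.

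Animals of different groups were no farther apart in segment usage than animals of the same group. Bray-Curtis distance, which is 0 for identical shares and 1 for no shared segment, averaged 0.718 over the 16 pairs of a vehicle with an HPβCD animal and 0.753 over the 12 pairs within a group. The closest pair was vehicle animal 4 with HPβCD animal 1 (0.533), and the most distant was vehicle animal 3 with HPβCD animal 2 (0.908). The excess of between-group over within-group distance was -0.0508 without vehicle animals 1 and 3, and over all 8 animals it was -0.0352 (exact permutation test, one-sided, p = 0.971, adjusted p = 0.971, n = 4 per group).

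Single segments were then compared in the fit over all genes, by the quasi-likelihood test of edgeR, with p-values adjusted by the Benjamini-Hochberg method over all 14736 genes tested. The filter on low counts kept 45 of the 111 segments. Of these, 34 exceeded the filter's cutoff in all 4 vehicle libraries and 2 did so in all 4 HPβCD libraries, so most entered through the group in which they were high, and counts over the 45 are a description. The test called 7 of the 45 lower in HPβCD infarcts, against 0.774% of all genes tested. It called none higher, against 1.17% of all genes, and none was higher at an unadjusted p under 0.05 or by DESeq2. At an unadjusted p under 0.05, 28 segments were lower, against 16% of all genes. In 18 of the 45, the lowest vehicle animal was above the highest HPβCD animal, against 8.03% of all genes, and in none was the reverse true. The median log2 fold change was -2.96 over the 45 and -0.05 over all genes tested. DESeq2, the tool used in the study, called 32 of 56 segments lower, against 11.1% of all genes.

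None of the 7 segments called by edgeR led a library or was among the 10 with the highest mean CPM, of which 9 were tested. DESeq2 did call abundant segments lower, among them Iglv1 (adjusted p = 9.16e-05), Igkv9-120 (6.52e-09), Igkv8-24 (0.00200), Igkv1-135 (0.00758) and Igkv10-96 (0.0111). The 7 segments called by edgeR were Iglv3, described above, and Igkv5-48, Igkv6-15, Igkv8-19, Igkv8-30, Igkv13-85 and Igkv16-104, with edgeR adjusted p between 0.0389 and 0.0483. All 7 edgeR calls were near the threshold and were lost when vehicle animal 1, vehicle animal 4, or HPβCD animal 1, 2 or 3 was left out. Without both vehicle animals 1 and 3, all 7 passed, and 8 of 54 segments were called.

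Igkv5-48 (ENSMUSG00000076563) had 2.09, 2.44, 6.60 and 24.04 CPM in vehicle animals 1 to 4, and 0.0575, 0.123, 0 and 0.0555 CPM in HPβCD animals 1 to 4. The HPβCD values rested on 4 counts in all. Vehicle animal 4 was the highest, and every vehicle animal exceeded every HPβCD animal. It fell by 7.11 on the log2 scale (SE 1.18, adjusted p = 0.0483 in edgeR).

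Igkv6-15 (ENSMUSG00000094797, chr6:70406469-70406992, minus strand) was the most abundant of the 7. It had 8.77, 6.92, 64.3 and 15.1 CPM in vehicle animals and 0.804, 0.368, 1.18 and 0.333 CPM in HPβCD animals. Vehicle animal 3 stood above the rest, but the lowest vehicle value was also well above the highest HPβCD value. It fell by 5.12 on the log2 scale (SE 0.93, adjusted p = 0.0483 in edgeR).

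Igkv8-19 (ENSMUSG00000096594, chr6:70340876-70341453) and Igkv8-30 (ENSMUSG00000076577, chr6:70117061-70117620) belong to the Igkv8 family, both on the minus strand. Igkv8-19 had 3.51, 2.497, 0.908 and 2.47 CPM in vehicle animals and 0.0575, 0.0613, 0.215 and 0.222 CPM in HPβCD animals. Igkv8-30 had 5.15, 1.98, 1.03 and 13.7 CPM in vehicle animals and 0.172, 0.245, 0.322 and 0.222 CPM in HPβCD animals. In both, vehicle animal 3 was the lowest of its group. The log2 fold changes were -4.00 (SE 0.57, adjusted p = 0.0389 in edgeR) and -4.46 (SE 0.87, adjusted p = 0.0483 in edgeR). Igkv8-28 of the same family, which led vehicle animal 2, did not pass (log2 fold change -6.53, SE 2.40, adjusted p = 0.132 in edgeR).

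Igkv13-85 (ENSMUSG00000079543, chr6:68930269-68930734, minus strand) and Igkv16-104 (ENSMUSG00000076522, chr6:68425575-68426072, plus strand) were nearly unread in HPβCD infarcts, with 2 counts each over the 4 libraries. Igkv13-85 had 2.55, 1.58, 1.63 and 0.538 CPM in vehicle animals and 0, 0.0613, 0 and 0.0555 CPM in HPβCD animals (edgeR adjusted p = 0.0389). Igkv16-104 had 66.6, 5.65, 2.18 and 7.74 CPM in vehicle animals, with vehicle animal 1 far above the rest, and 0.0575, 0, 0 and 0.0555 CPM in HPβCD animals (edgeR adjusted p = 0.0483). From summed counts, the vehicle level was 55.0 times the HPβCD level for Igkv13-85 (95% exact interval 14.9 to 459) and 624 times for Igkv16-104 (95% exact interval 173 to 5160), intervals that cover counting error only. Without vehicle animal 1, which held most of its counts, the ratio for Igkv16-104 was 190 (95% exact interval 52.1 to 1571). Igkv13-85 shares 75-base stretches with Igkv13-84, and 56.4% of its 75-base windows occurred in no other light chain V segment, so its counts are uncertain.

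**Figure D4:**
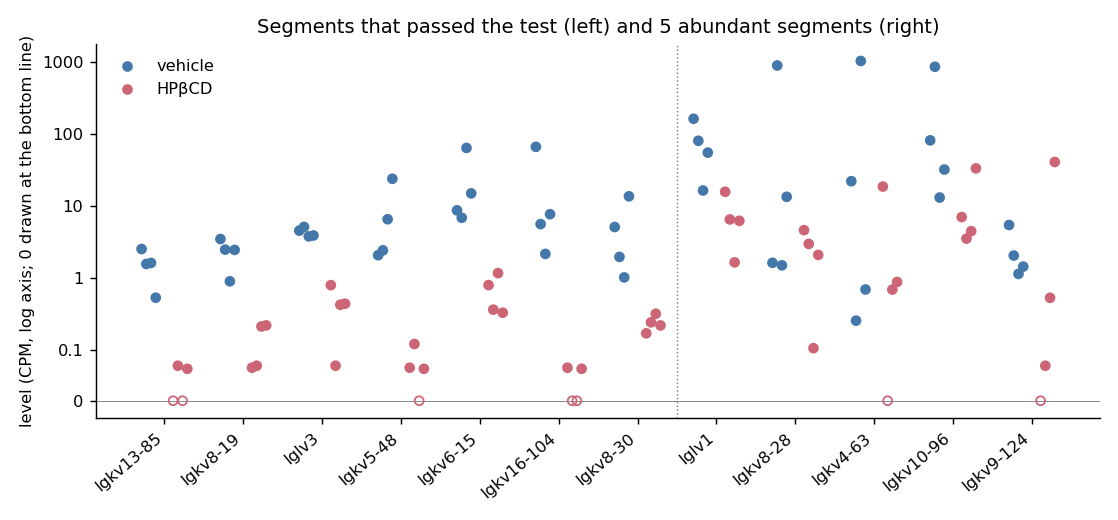
Level of each segment in each animal (CPM, log axis, values of 0 as open circles on the bottom line), for the 7 segments that passed the test (left of the dotted line) and 5 abundant segments that did not (right). Vehicle and HPβCD points do not overlap for the 7, whereas Igkv8-28, Igkv4-63 and Igkv10-96 each have a single vehicle point far above the others and Igkv9-124 has its highest point in HPβCD animal 4.

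The abundant segments varied widely between animals. Igkv9-120 (ENSMUSG00000094872, chr6:68049983-68050456, plus strand) came closest to the threshold among them. It had 82.0, 31.7, 259 and 21.8 CPM in vehicle animals and 1.03, 0.490, 1.88 and 5.11 CPM in HPβCD animals (log2 fold change -5.53, SE 1.12, adjusted p = 0.0539 in edgeR). Igkv12-46 (ENSMUSG00000076564, chr6:69764523-69765022, minus strand) had 2.04, 17.9, 359 and 5.86 CPM in vehicle animals and 1.21, 0.123, 0.215 and 0.222 CPM in HPβCD animals (log2 fold change -7.75, SE 2.05, adjusted p = 0.0778 in edgeR). For both, the groups did not overlap, and vehicle animal 3 was the highest. Without vehicle animals 1 and 3, Igkv12-46 passed the test (log2 fold change -4.72, adjusted p = 0.0443 in edgeR) and Igkv9-120 did not (log2 fold change -3.62, adjusted p = 0.0831 in edgeR).

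For other abundant segments the groups overlapped. Igkv1-135 had 150, 16.0, 5.15 and 18.0 CPM in vehicle animals and 0.690, 0.551, 0.429 and 7.11 CPM in HPβCD animals (edgeR adjusted p = 0.106). Igkv8-24 had 123, 0.804, 27.1 and 38.8 CPM in vehicle animals and 3.10, 0.0613, 0.161 and 0.555 CPM in HPβCD animals (edgeR adjusted p = 0.0877). Igkv10-94 had 32.5, 4.56, 13.9 and 103 CPM in vehicle animals and 31.4, 0.306, 0.590 and 2.83 CPM in HPβCD animals (edgeR adjusted p = 0.405), so HPβCD animal 1 lay within the vehicle range. Without vehicle animals 1 and 3, the log2 fold changes were -2.93 for Igkv1-135 and -4.33 for Igkv8-24 (adjusted p = 0.235 and 0.261 in edgeR). Igkv6-32 (chr6:70074024-70074603, minus strand), with 108, 9.56, 1.21 and 0.484 CPM in vehicle animals and at most 0.575 CPM in HPβCD animals, did not pass the filter and was not tested.

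Of the 45 tested segments, 3 had a positive log2 fold change, and none of these passed the test. Igkv6-25 had 0.566, 3.07, 0.121 and 1.34 CPM in vehicle animals and 25.8, 0.0613, 0.322 and 4.77 CPM in HPβCD animals (log2 fold change 2.54, SE 1.56, adjusted p = 0.332 in edgeR). Igkv9-124 had 5.49, 2.07, 1.15 and 1.45 CPM in vehicle animals and 0, 0.0613, 0.537 and 41.1 CPM in HPβCD animals (log2 fold change 2.04, SE 1.82, adjusted p = 0.516 in edgeR). Igkv6-25 was above every vehicle animal in HPβCD animals 1 and 4, and Igkv9-124 in HPβCD animal 4, and without HPβCD animal 4 the log2 fold change of Igkv9-124 was -3.58. Igkv4-59 averaged 0.953 CPM in either group, with an SD of 0.699 in vehicle and 0.909 in HPβCD infarcts (n = 4 per group), with a log2 fold change of 0.02 (SE 0.79, adjusted p = 0.991 in edgeR), whose sign turned under limma-voom and when single animals were left out.

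The leaders of the other HPβCD animals were also present in vehicle infarcts. Igkv4-55, the leader of HPβCD animal 2, was at 8.70 CPM there, against 12.05 to 21.5 CPM in vehicle animals, and it had the narrowest relative spread of the leaders within the vehicle group. The groups did not overlap, at a log2 fold change of -2.33 (SE 1.10, adjusted p = 0.216 in edgeR). Igkv14-111, the leader of HPβCD animal 3, was at 20.02 CPM there and at most 0.804 CPM in the other HPβCD animals. It ranged from 4.48 to 30.01 CPM in vehicle animals, so the groups overlapped (log2 fold change -1.15, SE 1.43, adjusted p = 0.649 in edgeR). A leading share in an HPβCD library thus stood on a lower level than a leading share in vehicle animals 2 and 3.

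The 66 segments that were not tested held 5.71% of light chain V counts. In 29 of them no HPβCD library had a count, and in 1, Igkv2-116, no vehicle library did, with 2 counts in HPβCD animal 1. Igkv1-122 was the most abundant of the 29, at 0.226, 0.431, 4.54 and 2.37 CPM in vehicle animals 1 to 4. The vehicle mean was 44.4 times the level that 3 counts over the 4 pooled HPβCD libraries would give, and 23.6 times without vehicle animal 3. These ratios reflect counting only, not the variation between animals. They do not hold for each animal, since vehicle animals 1 and 2 were far below the vehicle mean. In the fit without the filter, in which all 111 segments were included, 99 had a negative log2 fold change and the median was -2.78, against -0.15 over all 26720 genes with a count. There were 26 segments with a count in all 8 libraries and 14 with a count in a single library, and 27 had fewer than 10 counts in total.

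Families are groups of related V segments, named by the number before the dash. The 111 segments fell into 22 families, with the 3 lambda segments each as its own. Igkv4, the largest with 30 segments, took 5.30%, 1.89%, 53.7% and 16.9% of light chain V counts in vehicle animals 1 to 4 and 20.9%, 25.6%, 7.79% and 2.35% in HPβCD animals 1 to 4. Igkv10, with 3 segments, took 10.6%, 41.5%, 1.35% and 19.1% in vehicle animals and 19.8%, 10.2%, 10.6% and 22.2% in HPβCD animals. Igkv8 took 15.3%, 43.4%, 1.87% and 11.1% in vehicle animals and 4.19%, 10.6%, 5.01% and 2.72% in HPβCD animals. For each of these 3 families the groups overlapped. In 2 of the 22 families they did not, which was not tested. Random assignment of 4 against 4 animals separates a given family with a probability of at most 0.0286. Igkv17 took 0.570%, 0.238%, 0.339% and 0.228% in vehicle animals and a larger share, 0.945%, 1.28%, 1.78% and 1.87%, in HPβCD animals. This larger share went with a lower level, at log2 fold changes of -2.73 for Igkv17-121 and -1.01 for Igkv17-127. Neither passed the edgeR test (adjusted p = 0.0690 and 0.391), and DESeq2 called Igkv17-121 lower (adjusted p = 0.00311). Igkv16, whose single segment Igkv16-104 is described above, took 0.108% to 6.16% in vehicle animals and at most 0.0340% in HPβCD animals.

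At the kappa locus, segments lie on either strand, and those in the opposite orientation to the joining segments rearrange by inversion and those in the same orientation by deletion. The 108 kappa members lay from 18.4 to 3166 kb from Igkj1, the joining segment nearest to them, 68 in the opposite and 40 in the same orientation. Opposite-orientation segments took 55.8%, 93.8%, 79.7% and 81.1% of kappa V counts in vehicle animals 1 to 4 and 67.8%, 88.5%, 33.6% and 60.3% in HPβCD animals 1 to 4. The lowest value, in HPβCD animal 3, went with its leader Igkv14-111, which lies in the same orientation. The 40 segments within 1000 kb of Igkj1 took 39.2%, 49.0%, 26.8% and 42.2% of kappa V counts in vehicle animals and 30.6%, 48.3%, 15.5% and 18.7% in HPβCD animals, again with overlap. These shares follow from the leaders of each library and were not tested.

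**Figure D5:**
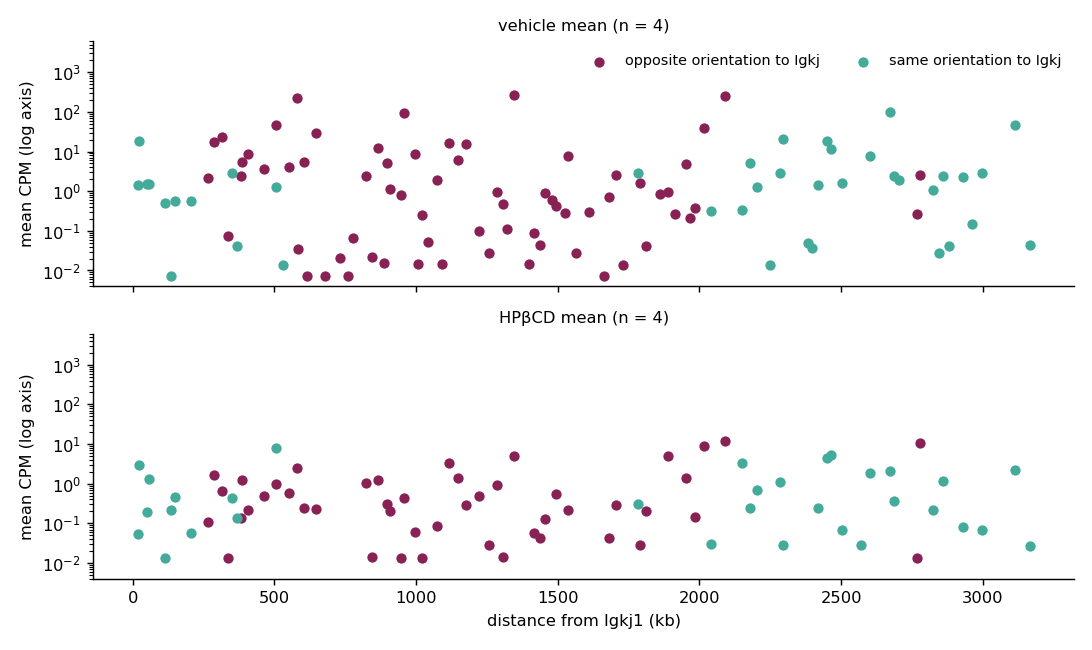
Mean CPM (log axis) of each kappa segment in vehicle (top) and HPβCD (bottom) infarcts against its distance from Igkj1 in kb, coloured by orientation; segments with no count in a group are left out of that panel. Opposite-orientation segments lie between 264.5 and 2780 kb and same-orientation segments mostly towards either end of the locus, and the highest points are lower in the HPβCD panel.

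Near-identical segments limit how reads are assigned. Of the 111 members, 44 had every 75-base window, the length of a read, unique among light chain V segments. In 26 members fewer than 80% of windows were unique, and these held 8.34% of light chain V counts. Igkv10-94 and Igkv10-96 shared 57 windows, leaving 76.2% of the windows of Igkv10-94 unique, so the split between this pair is uncertain, as is that of Igkv6-25 (67.0% unique) and Igkv4-55 (70.2% unique). Reads that match several places were not assigned to a gene, which undercounts such segments. Iglv1 overlaps 2010309G21Rik on the opposite strand, and the strand setting of the counting was not given in the sources used here.

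Other genes of the antibody pathway were taken from lists grouped by role. Igkc, the kappa constant gene, fell, from 3091, 4660, 4890 and 1894 CPM in vehicle animals 1 to 4 to 664, 119, 157 and 358 CPM in HPβCD animals 1 to 4 (log2 fold change -3.48, SE 0.61, adjusted p = 0.0483 in edgeR). It was the only one called among 4 tested light chain constant and joining genes, all of which had negative log2 fold changes (median -2.66). Among 7 heavy chain constant genes tested, 6 had negative log2 fold changes, and Ighd (IgD) fell (log2 fold change -2.68, adjusted p = 0.0499 in edgeR). Of the secretion and plasma cell genes, 3 of 12 fell, against 0.774% of all genes tested, and 11 of 12 had negative log2 fold changes. Jchain, which joins antibody units into polymers, was among the 3, from 1344, 2184, 1998 and 858 CPM in vehicle animals to 229, 40.99, 49.9 and 78.9 CPM in HPβCD animals (log2 fold change -4.00, SE 0.64, adjusted p = 0.0462 in edgeR). The others were Pou2af1, a B-cell coactivator (log2 fold change -1.57), and Bhlha15, a regulator of secretory cells (log2 fold change -3.57). Of the 9 genes called in these lists and the B lymphocyte list described below, none passed without vehicle animal 1 or 4 or HPβCD animal 2, 3 or 4, and 1 passed without HPβCD animal 1. All 9 had edgeR adjusted p between 0.0462 and 0.0499. With DESeq2 all 9 passed, with limma-voom 3 did, and with animal number added to the edgeR fit none did. Without vehicle animals 1 and 3 together, 4 of the 9 passed, and Igkc (adjusted p = 0.119 in edgeR) and Jchain (adjusted p = 0.106 in edgeR) did not.

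Genes that act before the light chain is complete were hardly read. Rag2, needed for recombination, had no count in any library, and Rag1 was at or below 0.230 CPM. Of the 5 recombination and diversification genes only Ung, a DNA repair enzyme, was tested (log2 fold change 0.36, adjusted p = 0.476 in edgeR). Of the surrogate light chain genes, which stand in for a light chain in precursor cells, only Vpreb3 was tested (log2 fold change -0.85, adjusted p = 0.463 in edgeR).

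Of 8 B lymphocyte markers, 4 fell (Cd79a, Cd79b, Blk and Fcer2a) and all 8 had negative log2 fold changes, with a median of -1.92. Their summed level was 150 to 556 CPM in vehicle and 48.3 to 136 CPM in HPβCD animals. Of 8 plasma cell markers, 2 fell (Jchain and Bhlha15, also counted above), and the median log2 fold change was -1.58. Over all genes tested, edgeR called 0.774% lower and 1.17% higher. None of 6 T lymphocyte genes passed the test in either direction (edgeR; summed level 77.9 to 108 CPM in vehicle and 66.7 to 164 CPM in HPβCD animals). Neuron, astrocyte and oligodendrocyte markers had negative log2 fold changes in all 5, 4 and 4 tested genes, none of which passed the test. Summed neuron markers were 9.30 to 5682 CPM in vehicle and 2.57 to 71.7 CPM in HPβCD animals. Astrocyte markers summed to 1605 to 8075 CPM and 275 to 2010 CPM, and oligodendrocyte markers to 1197 to 4025 CPM and 97.3 to 1561 CPM, in the same order of groups, so brain cell markers were also lower on average in HPβCD infarcts. Of 5 microglia and macrophage genes 1 rose and 2 had negative log2 fold changes, with a median of 0.53. The sum of the 5, which weighs abundant genes most, was 3454 to 5923 CPM in vehicle and 8810 to 15152 CPM in HPβCD animals. The part of adjoining brain tissue in the V segment levels was not tested. Leaving out vehicle animals 1 and 3 cannot test it. These animals stood apart in neuron markers and also had the highest astrocyte sums (6108 and 8075 CPM), and vehicle animal 1 had the highest oligodendrocyte sum (4025 CPM). Vehicle animals 2 and 4 still had oligodendrocyte sums (1839 and 2437 CPM) above every HPβCD animal. Their neuron sums (32.0 and 9.30 CPM) and astrocyte sums (1605 and 2912 CPM) overlapped those of HPβCD animals.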

How the data were processed

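The authors sequenced stranded mRNA libraries as paired 75-base reads, trimmed these with Trimmomatic 0.32, aligned them to GRCm38 with STAR 2.5.2b and counted reads per gene with HTSeq. Raw gene counts were deposited by the authors, as 1 table for each animal. The 5 lines for unassigned reads (26.6% to 36.6% of a library) were left out. Symbols matched 45143 of 46078 identifiers, and coordinates and transcripts were those of GENCODE M21. Groups and animal numbers came from the labels, which give no batch. Every pair of libraries differed by more than sampling noise (lowest chi-square per degree of freedom 18.9).

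All genes were fitted with edgeR 4.0.16 (R 4.3.3), with robust quasi-likelihood tests, TMM factors, filterByExpr by group and no covariate. Genes with a Benjamini-Hochberg adjusted p under 0.05 are called. The procedure was tested on simulated data. CPM are counts scaled by library size and TMM factor, and SE of log2 fold changes came from the F statistic. DESeq2 1.42.0 and limma-voom (limma 3.58.1) were alternatives. DESeq2 gave no adjusted p for 8 of the 45 tested segments. Usage measures were compared by exact permutation tests over the 70 assignments of 8 animals (scipy), with Benjamini-Hochberg adjustment over 4 measures. Wilson and exact intervals reflect counting error alone, because reads lacking molecular identifiers need not be separate molecules.

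Segments are named if they were among the 10 with the highest mean CPM, passed the edgeR test, led a library, had one of the 3 largest log2 fold changes in either direction among those tested, were lambda segments, or were Igkv5-48. Igkv1-122 and Igkv2-116 were chosen after their values were seen. The members, gene lists and tests were chosen with earlier results of these data known.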

Additional observations from a re-analysis of the deposited data

Results flagged for a closer look

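In groups of 4 animals, an animal was noted when its gap to the nearest other animal was large relative to the group's range (Dixon's ratio, 95% critical value). Chance notes about 1 in 20 groups for normally distributed values, and CPM are skewed, so the 20 cases among 66 groups are given as values only. In vehicle animals the values that stood apart were Igkv1-135 (150 CPM), Igkv16-104 (66.6 CPM) and Igkv6-32 (108 CPM) in animal 1, and Igkv8-28 (896 CPM) and Igkv10-96 (860 CPM) in animal 2. In vehicle animal 3 they were Igkv4-63 (1035 CPM), Igkv12-46 (359 CPM) and Igkv6-15 (64.3 CPM), and in vehicle animal 4 Igkv14-111 (30.01 CPM).

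In HPβCD animal 1 they were Igkv10-94 (31.4 CPM), Igkv4-63 (18.7 CPM), Iglv2 (6.78 CPM), Igkv8-24 (3.10 CPM) and Igkv12-46 (1.21 CPM). Igkv14-111 (20.02 CPM) stood apart in HPβCD animal 3, and Igkv9-124 (41.1 CPM), Igkv10-96 (33.5 CPM) and Igkv1-135 (7.11 CPM) in HPβCD animal 4. HPβCD animal 2 had fewer detected segments (39) than its group, on 625 light chain V counts, the lowest depth. HPβCD animal 4 had more V counts per light chain constant count (0.448) than its group.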

How the results depend on the processing

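The count of calls over all genes was 287, and it was 2899 with DESeq2, 65 with limma-voom and 300 with RLE size factors, and 0 to 629 when single animals were left out. The count of called segments was 7, and it was 32 with DESeq2, 3 with limma-voom, 3 without the filter and 0 to 9 when single animals were left out. It was 0 without vehicle animal 1 or 4 or HPβCD animal 1, 2 or 3 and 4 without HPβCD animal 4, although 24 to 31 segments then had an unadjusted p under 0.05. With animal number as a replicate block, 9 genes and 3 segments were called. The labels do not say that equal numbers pair the animals. Same-numbered deviations correlated at -0.26, 0.24, 0.33 and 0.097, and those of different numbers between -0.39 and 0.35. Such values cannot settle whether animals were paired. Leaving out vehicle animals 1 and 3, an alternative added after the data were seen, gave 202 genes and 8 segments.

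The 7 called segments kept a negative log2 fold change in all 98 alternative fits of theirs, 45 of which passed the threshold. The direction reversed for Igkv4-59 (limma-voom -0.22, block -0.13, and -0.84, -0.26 and -0.24 without HPβCD animal 1, vehicle animal 2 or vehicle animal 3), Igkv9-124 (limma-voom -2.04, block -1.65, without HPβCD animal 4 -3.58) and Igkv4-63 (3.50 without vehicle animals 1 and 3). With single animals left out, Igkv4-59 ran from -0.84 to 0.53 and Igkv9-124 from -3.58 to 2.74. The cause was not tested. The summed share difference stayed between -4.40 and -3.60 with single animals left out. Over the same fits the lambda difference ran from -0.52 to 4.999 percentage points, the leading share difference from -10.1 to 2.15, the effective number difference from -0.0852 to 0.77 on the log2 scale and the distance excess from -0.0538 to -0.00665, so the signs of the first 3 depended on single animals. Other indices and segment sets kept the sign of each usage measure, and no exact p was under 0.05. The 625 light chain V counts of HPβCD animal 2 left its lambda share with an interval of 15.4% to 21.5%.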
